A study of Mus musculus with 12 samples.

Results

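The Ifitm family was described across WT and RAC1 A159V tumor cells through 4 genes, Ifitm1, Ifitm2, Ifitm3 and Ifitm10, which are the rows of the count table whose Ensembl identifiers carry these symbols in GENCODE M21. All 4 were among the 33219 features of the table, and 3 of them, all but Ifitm10, were among the 14340 genes with enough counts to be tested. The family was chosen because Ifitm1 was strongly lower in A159V tumors in these same samples, so the levels of its members in A159V against WT are given as a description, with no test. The tests below are those of anti-PD1 against IgG, and of genes outside the family.

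Tumors were grown subcutaneously in C57BL/6 mice of either sex, aged 6 to 8 weeks, from MC38, a mouse colon adenocarcinoma line. WT tumors carried unedited Rac1, and A159V tumors carried the homozygous A159V codon, placed in the endogenous Rac1 gene by CRISPR-Cas9 knock-in. Unless otherwise specified, the study used 1 A159V clone, so the mutation and the clone cannot be told apart here. Mice of each genotype received IgG isotype control or anti-PD1 (RMP1-14) from day 3 and again every 3 days, and tumor cells were purified on day 13 with a magnetic kit that removes other cells. With 2 genotypes and 2 treatments this made 4 groups of n = 3 mice each, 12 in all. Polyadenylated RNA was sequenced, and the total counts per mouse lay between 14053582 and 21949942 (median 18794752). Levels are given as CPM, the counts of a gene relative to the library total after TMM scaling. The limit of detection was set at 3 counts, or 0.137 to 0.213 CPM depending on the library, and covers counting error only.

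Ifitm genes encode small membrane proteins of the CD225, or dispanin, family. Ifitm1, Ifitm2 and Ifitm3 are induced by interferons in many cell types and block the entry of enveloped viruses by hindering fusion of the viral and host membranes. IFITM1 lies mostly at the plasma membrane, whereas IFITM2 and IFITM3 lie mostly in endosomes and lysosomes. IFITM3 is held at the membrane by palmitoylation and is turned over after ubiquitination. IFITM10 belongs to the same family and is not known as an interferon-induced antiviral protein.

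Libraries did not look alike in every group. Pearson's r of log2 CPM between mice of a group, across the genes tested, was 0.964 to 0.985 in WT IgG and 0.972 to 0.992 in A159V IgG, against 0.988 to 0.990 in A159V anti-PD1 and 0.989 to 0.990 in WT anti-PD1. In WT IgG replicate 1, short genes read higher than in the other mice. A smooth trend of log2 CPM with exon length put genes of the length of Ifitm2 0.71 and those of the length of Ifitm3 0.70 above their mean over all mice, and those of the length of Ifitm1 0.55 above it. In the other 11 mice, these 3 trend values lay between −0.15 and 0.24. The log2 fold changes of the members that use WT IgG are therefore also given without this mouse.

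Ifitm1 is encoded on chromosome 7 from 140967221 to 140969825 of mm10, on the plus strand (ENSMUSG00000025491, exon length 1094 bp). In WT IgG it was read at 72.1, 42.2 and 43.3 CPM in replicates 1, 2 and 4, from 1319, 690 and 862 counts. In WT anti-PD1 it was read at 37.0, 34.8 and 44.8 CPM, from 714, 519 and 805 counts. In A159V IgG the values were 1.32, 2.79 and 1.86 CPM in replicates 1, 2 and 5, from 25, 58 and 35 counts. A159V tumors treated with anti-PD1 read 1.85, 2.55 and 3.17 CPM, from 34, 48 and 57 counts. Every A159V tumor lay below every WT tumor under both treatments, and the transcript was still above 3 counts in all 12 mice.

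Under IgG the mean of Ifitm1 was 52.5 ± 16.9 CPM in WT and 1.99 ± 0.74 CPM in A159V (SD, n = 3 each), which is 26.2-fold lower (log2 fold change −4.71, SE 0.31). Under anti-PD1 the means were 38.9 ± 5.28 CPM in WT and 2.52 ± 0.66 CPM in A159V, a log2 fold change of −3.94 (SE 0.30), or 15.4-fold lower. Over all genes tested, 52 genes had a lower log2 fold change than Ifitm1 between the genotypes under IgG and 142 under anti-PD1. The median over all genes was 0.02 under IgG and 0.06 under anti-PD1. With 1 mouse left out at a time, the log2 fold change of Ifitm1 stayed between −5.03 and −4.48 under IgG, where −4.48 is the value without replicate 1 of WT IgG, and between −4.13 and −3.76 under anti-PD1.

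**Figure D1:**
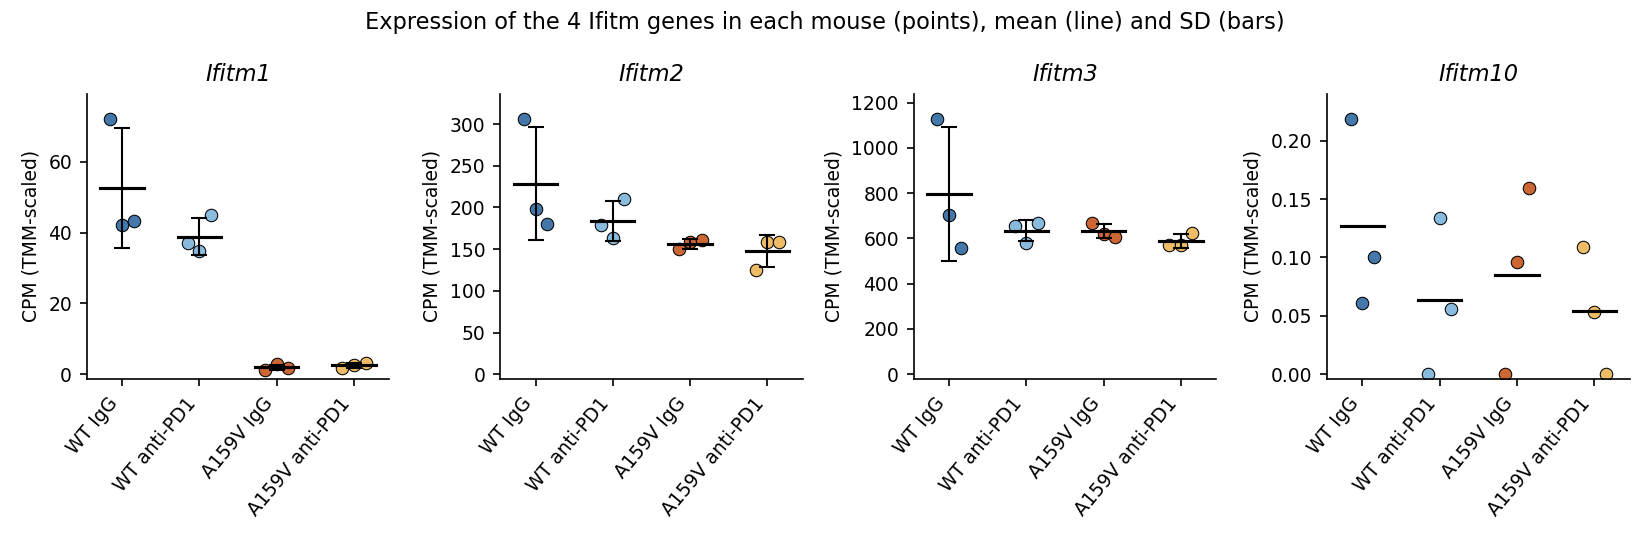
Expression of Ifitm1, Ifitm2, Ifitm3 and Ifitm10 in CPM scaled by TMM (y axes, from 0, with a separate scale for each gene) in each of the 12 mice (points) of the 4 groups (x axis), with the group mean (line) and, except for Ifitm10, the SD (bars). Ifitm1 lay between 34.8 and 72.1 CPM in WT tumors and between 1.32 and 3.17 CPM in A159V tumors, whereas Ifitm2 and Ifitm3 were read at 125 CPM or more and 559 CPM or more, respectively, in every mouse.

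Ifitm2 and Ifitm3 flank Ifitm1 on the same chromosome, both on the minus strand. Ifitm2 (ENSMUSG00000060591) spans 140954837 to 140955987, with its lower coordinate at −12.4 kb from that of Ifitm1, and has an exon length of 655 bp. It was read at 306, 199 and 181 CPM in replicates 1, 2 and 4 of WT IgG and at 150, 158 and 161 CPM in replicates 1, 2 and 5 of A159V IgG. In WT anti-PD1 the values were 179, 163 and 210 CPM, and A159V tumors under this antibody read 125.1, 158.93 and 158.99 CPM. The A159V values lay below all WT values under both treatments, but by a narrow margin next to that of Ifitm1.

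Under IgG the mean of Ifitm2 was 228 ± 67.9 CPM in WT and 157 ± 5.98 CPM in A159V (log2 fold change −0.55, SE 0.19). Under anti-PD1 the means were 184 ± 23.8 and 148 ± 19.6 CPM, a log2 fold change of −0.32 (SE 0.19). Without replicate 1 of WT IgG the first of these was −0.34, and with each sample's trend with exon length removed it was −0.09, an alternative chosen after seeing the data. With the trend removed, the value of Ifitm1 was −4.40. The part of exon length in the Ifitm2 difference was not tested.

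Ifitm3 (ENSMUSG00000025492) spans 141009586 to 141010770, with its lower coordinate 42.4 kb after that of Ifitm1, and has an exon length of 678 bp. It was the most abundant member. It was read at 1128, 704 and 559 CPM in replicates 1, 2 and 4 of WT IgG, at 668, 621 and 607 CPM in replicates 1, 2 and 5 of A159V IgG, and, under anti-PD1, at 657, 580 and 668 CPM in WT and at 569, 572 and 625 CPM in A159V. The genotypes overlapped under both treatments, and replicate 1 of WT IgG stood above all other mice.

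The log2 fold change of Ifitm3 in A159V against WT was −0.33 (SE 0.20) under IgG, from 797 ± 296 to 632 ± 32.0 CPM, and −0.11 (SE 0.20) under anti-PD1, from 635 ± 48.1 to 589 ± 31.4 CPM. Without replicate 1 of WT IgG the value under IgG was −0.06, and with the length trend removed it was 0.13, of the opposite sign. Under IgG, 2 of the 3 members with enough counts, Ifitm1 and Ifitm2, had groups that did not overlap, both lower in A159V, in a comparison where 35.8% of the genes tested did not overlap, 16% with A159V lower and 19.8% with A159V higher. Under anti-PD1 the same 2 members did not overlap, where 56.1% of the genes tested did not, 23.5% with A159V lower and 32.6% with A159V higher. Because the members were chosen on these differences, the counts are given only beside the background.

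Ifitm10 (ENSMUSG00000045777) lies farther along the chromosome, from 142325837 to 142373753, and had between 0 and 4 counts in a mouse. Summed over a group, the counts under IgG were 7 in WT and 5 in A159V, and those under anti-PD1 were 3 in each genotype, at or near the limit of detection. No fold change was computed for it.

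By exact sequence over a whole read, Ifitm1 could be told from its relatives. None of the 637 windows of 100 bases, the read length, in the Ifitm1-201 transcript of GENCODE M21 occurred in a transcript of another gene, and none of the 579 windows of Ifitm3-201 did. For Ifitm2-201, 194 of 556 windows, or 34.9%, also occurred in Gm11951, Gm45717 or Gm8865, none of which has a row in the count table, so the count of Ifitm2 is less certain. Gm45717 also overlaps Ifitm2 in the genome. At 50 bases, 53 of 687 windows of Ifitm1-201, or 7.7%, also occurred in Gm7676 or Ifitm3. Reads with mismatches or aligned only in part were not examined. In A159V mice Ifitm3 had 197 to 506 counts for each count of Ifitm1. The 3 transcripts were 73.8% identical between Ifitm1 and Ifitm2 over 515 aligned columns, 81.6% between Ifitm1 and Ifitm3 over 299, and 83.3% between Ifitm2 and Ifitm3 over 365.

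The promoters of the 3 neighbors are shown because the genes lie side by side and are read at such different levels in A159V tumors. Each window of 300 bases from RefSeq (GRCm38.p6) starts 250 bases before the transcript start, which is base 251, and is written 5′ to 3′ on the strand of its gene, at chr7:140967826-140968125 on the plus strand for Ifitm1, chr7:140955912-140956211 on the minus strand for Ifitm2 and chr7:141010695-141010994 on the minus strand for Ifitm3. Capitals mark matches on either strand to the interferon-stimulated response element (ISRE), searched as GAAA, any 2 bases and GAAA, and to the gamma-activated site (GAS), searched as TTCNNNGAA.
Ifitm1: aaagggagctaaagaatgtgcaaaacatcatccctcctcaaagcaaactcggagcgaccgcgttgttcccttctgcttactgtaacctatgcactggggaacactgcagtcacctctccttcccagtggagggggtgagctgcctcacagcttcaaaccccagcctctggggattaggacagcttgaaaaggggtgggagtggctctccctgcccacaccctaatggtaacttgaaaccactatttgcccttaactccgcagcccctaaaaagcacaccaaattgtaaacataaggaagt
Ifitm2: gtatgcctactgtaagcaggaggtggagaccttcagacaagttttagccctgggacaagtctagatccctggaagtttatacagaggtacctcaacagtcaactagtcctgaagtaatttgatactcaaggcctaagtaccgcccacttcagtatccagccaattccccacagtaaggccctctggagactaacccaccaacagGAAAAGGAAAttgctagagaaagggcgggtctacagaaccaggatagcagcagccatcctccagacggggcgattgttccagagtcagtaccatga
Ifitm3: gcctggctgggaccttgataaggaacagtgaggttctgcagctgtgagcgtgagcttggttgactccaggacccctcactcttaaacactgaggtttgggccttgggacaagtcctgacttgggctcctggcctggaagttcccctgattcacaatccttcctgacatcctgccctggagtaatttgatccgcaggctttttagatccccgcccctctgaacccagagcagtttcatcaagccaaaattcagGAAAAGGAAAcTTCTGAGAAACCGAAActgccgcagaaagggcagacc

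ISRE letters are typical of genes induced by type I interferon, and GAS letters of genes induced by interferon-gamma. The window of Ifitm2 held 1 ISRE match, beginning 46 bases before the start, and that of Ifitm3 held 2, beginning at bases 253 and 270 of the window, and 1 GAS match at base 264, which overlaps the second of them. The windows of Ifitm1 and Ifitm10 held neither motif, which says only that these letters are not in these windows. The window of Ifitm1 lies inside the gene as annotated in GENCODE M21, which begins at 140967221. The bases before that position were not searched. ISRE letters occurred in 3.44% of the 32851 promoters of the table and GAS letters in 8.30%. Among 31 genes of a list of interferon-stimulated genes that had a promoter in the table, 13 held ISRE letters (41.9%) and 7 held GAS letters (22.6%).

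Within a library, ratios between members do not depend on how libraries are scaled. Per kb of exon, the order of levels was Ifitm3, Ifitm2, Ifitm1 and Ifitm10 in all 12 mice. In CPM per kb, the mean level of Ifitm3 under IgG was 1176 in WT and 932 in A159V, and under anti-PD1 it was 937 and 868. That of Ifitm2 was 349 and 239 under IgG and 281 and 225 under anti-PD1, and that of Ifitm1 was 48.0 and 1.82 under IgG and 35.5 and 2.31 under anti-PD1. Of the counts of Ifitm1, Ifitm2 and Ifitm3 together, Ifitm1 took 4.93% ± 0.54 (SD, n = 3) in WT and 0.253% ± 0.098 in A159V under IgG, and 4.52% ± 0.31 and 0.339% ± 0.069 under anti-PD1.

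The log2 ratio of Ifitm1 to Ifitm3, per kb, was lower in A159V than in WT by −4.47 under IgG and −3.86 under anti-PD1, given with no test. The log2 ratio of Ifitm2 to Ifitm3 differed by −0.23 and −0.21. The large difference was that of Ifitm1 against both of its neighbors, in which replicate 1 of WT IgG did not stand apart.

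**Figure D2:**
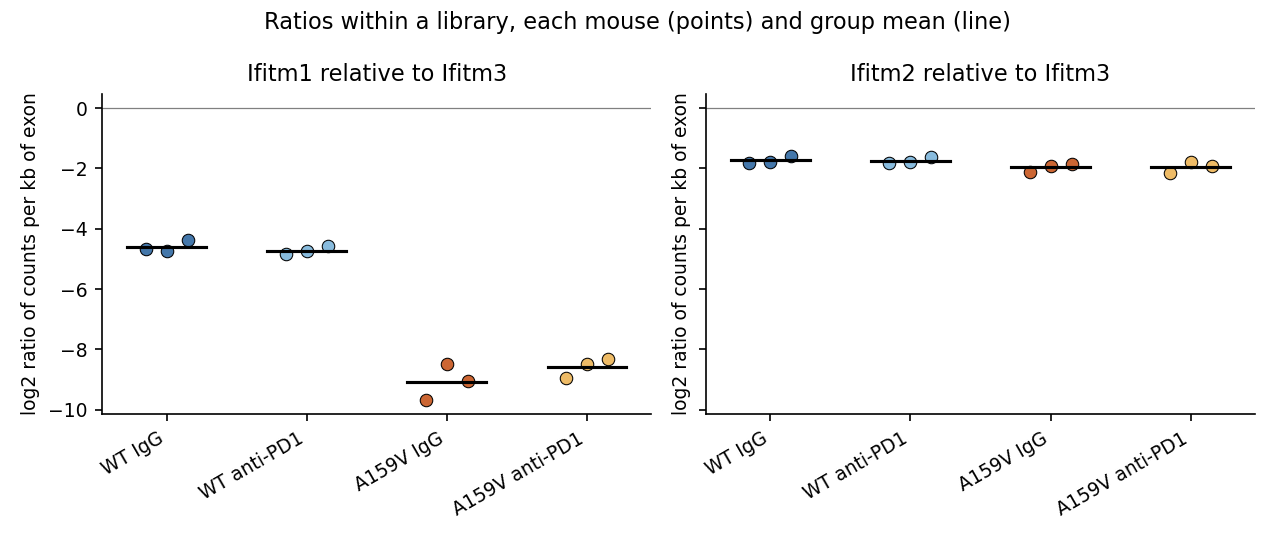
Log2 ratio of counts per kb of exon (y axis, shared) of Ifitm1 to Ifitm3 (left) and of Ifitm2 to Ifitm3 (right) in each of the 12 mice (points) of the 4 groups (x axis), with the group mean (line). The ratio of Ifitm1 to Ifitm3 lay between −4.84 and −4.38 in WT tumors and between −9.67 and −8.31 in A159V tumors, and that of Ifitm2 to Ifitm3 lay between −2.14 and −1.58 in all mice.

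Anti-PD1, which blocks the PD1 receptor on T cells, was compared with IgG within each genotype, a comparison that did not choose the members. In WT tumors none of the 3 members passed edgeR's quasi-likelihood test (a log2 fold change beyond 0.3 in either direction at an adjusted p below 0.05), in a comparison where 0.628% of the genes tested did, 0.495% as higher and 0.132% as lower, and none had an unadjusted p under 0.05. The log2 fold change of Ifitm1 was −0.43 (SE 0.25, adjusted p = 0.267), that of Ifitm2 −0.31 (SE 0.19, adjusted p = 0.286) and that of Ifitm3 −0.33 (SE 0.20, adjusted p = 0.307). The treated and control mice overlapped for each of them, where 34.6% of the genes tested did not overlap, 15.8% with anti-PD1 lower and 18.8% with anti-PD1 higher. DESeq2 and limma voom also called none of the 3.

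Replicate 1 of WT IgG carried most of these values. Without it the log2 fold changes were −0.14 for Ifitm1, −0.05 for Ifitm2 and 0.0012 for Ifitm3. Without replicate 4 of WT IgG, Ifitm3 passed the test (−0.53, edgeR adjusted p = 0.0450). With the length trend removed, the values were −0.06 for Ifitm1 and 0.14 for both Ifitm2 and Ifitm3, with adjusted p-values from 0.497 to 0.884.

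In A159V tumors none of the 3 members passed the same test, where 0% of the genes tested did, and none had an unadjusted p under 0.05. The log2 fold change of Ifitm1 was 0.33 (SE 0.32), that of Ifitm2 −0.08 (SE 0.19) and that of Ifitm3 −0.10 (SE 0.20), each with an edgeR adjusted p of 1 and with groups that overlapped, where 11% of the genes tested did not overlap, 6.5% with anti-PD1 lower and 4.51% with anti-PD1 higher. DESeq2 and limma voom called none of the 3. The interaction, which is the log2 fold change on anti-PD1 in A159V minus that in WT, was 0.77 for Ifitm1 (SE 0.40, adjusted p = 0.320), 0.23 for Ifitm2 (SE 0.26, adjusted p = 0.642) and 0.22 for Ifitm3 (SE 0.29, adjusted p = 0.679), and 0.00697% of the genes tested passed for it. Without replicate 1 of WT IgG these values were 0.46, −0.05 and −0.12, and with the length trend removed they were 0.32, −0.32 and −0.34, so that those of Ifitm2 and Ifitm3 changed sign. None of the 3 had an unadjusted p under 0.05 for it, and neither DESeq2 nor limma voom called any.

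The ratio of Ifitm1 to Ifitm3 within a library also showed no response that could be told from the spread. The mean log2 ratio under anti-PD1 minus that under IgG was −0.13 in WT (exact permutation test, two-sided, p = 0.5, n = 3 per group) and 0.48 in A159V (exact permutation test, two-sided, p = 0.3, n = 3 per group). With 3 mice against 3 this test cannot give a p under 0.1.

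**Figure D3:**
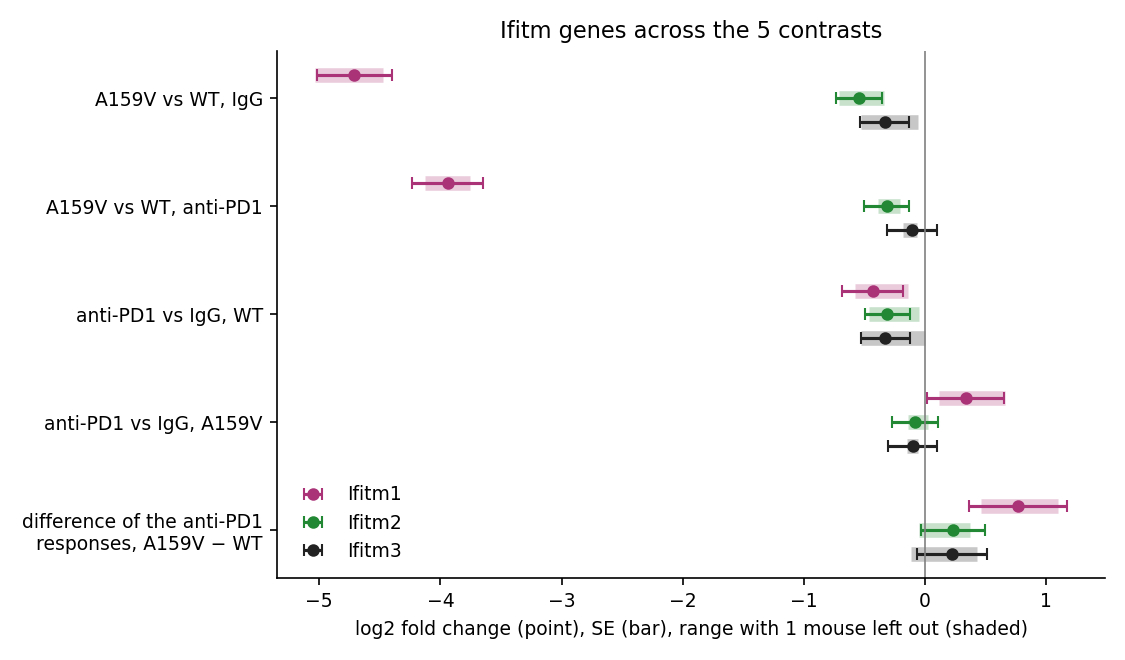
Log2 fold change (x axis, points) with its SE (bars) of Ifitm1, Ifitm2 and Ifitm3 in the 4 pairwise comparisons and for the difference of the anti-PD1 responses (y axis), with the range when 1 mouse is left out (shaded). Ifitm1 stood at −4.71 and −3.94 in A159V against WT, and the other values lay between −0.55 and 0.77.

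Other members of the family were nearly silent. Of 10 further CD225 genes with a row in the table, 3 had enough counts to be tested, Ifitm5, Ifitm6 and Tmem91. None of them passed the test in A159V against WT, under IgG or anti-PD1, where 28% and 21.4% of all genes tested did. With SEs of 0.53 to 0.68 for these 3 genes, only large changes could have passed. Ifitm5, best known from bone-forming cells, was the only 1 with a group mean above 1 CPM, at 1.26 ± 0.52 CPM in WT and 0.45 ± 0.30 CPM in A159V under IgG (log2 fold change −1.48, SE 0.64, edgeR adjusted p = 0.103, unadjusted p = 0.0381). Ifitm6, which lies 48.5 kb from Ifitm1 beyond Ifitm3, had a log2 fold change of −0.36 (SE 0.68, adjusted p = 0.724).

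Genes around Ifitm1 were examined next. Within 500 kb of its start, 37 genes were tested, 34 of them outside the family described here. In A159V against WT under IgG, 5 of these 34 rose and 1 fell, or 17.6%, where 28% of all genes tested were called, 15.6% as higher and 12.4% as lower. The gene that fell was Pgghg, a glycosidase gene at −25.8 kb from Ifitm1 (log2 fold change −0.64, SE 0.19, adjusted p = 0.0230). Those that rose were Cdhr5, which encodes a cadherin of the brush border (2.17, SE 0.26), Urah, which encodes an enzyme of urate breakdown (1.60, SE 0.31), Eps8l2, an actin regulator (0.74, SE 0.24), Phrf1 (0.43, SE 0.15) and Ric8a, a chaperone of G protein alpha subunits (0.35, SE 0.11). The nearest tested genes on either side of Ifitm2, Ifitm1 and Ifitm3 were Ifitm5 and Ifitm6, which did not pass.

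Under anti-PD1, 8 of the 34 neighbors rose in A159V and none fell, or 23.5%, where 21.4% of all genes tested were called. Of all genes tested, 11.2% were called as higher and 10.2% as lower. Cdhr5 (1.51, SE 0.26), Urah (1.34, SE 0.29) and Ric8a (0.42, SE 0.11) rose again, and Ano9 (1.01, SE 0.28), Pkp3 (0.66, SE 0.22), Rassf7 (0.66, SE 0.20), B4galnt4 (0.54, SE 0.18) and Psmd13 (0.46, SE 0.15) passed as well. Irf7, the interferon regulatory factor gene 295 kb from Ifitm1, had a log2 fold change of −0.01 (SE 0.15) under IgG and −0.18 (SE 0.15) under anti-PD1. The median over the 34 neighbors was 0.02 under IgG and 0.22 under anti-PD1, where that over all genes was 0.02 and 0.06.

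**Figure D4:**
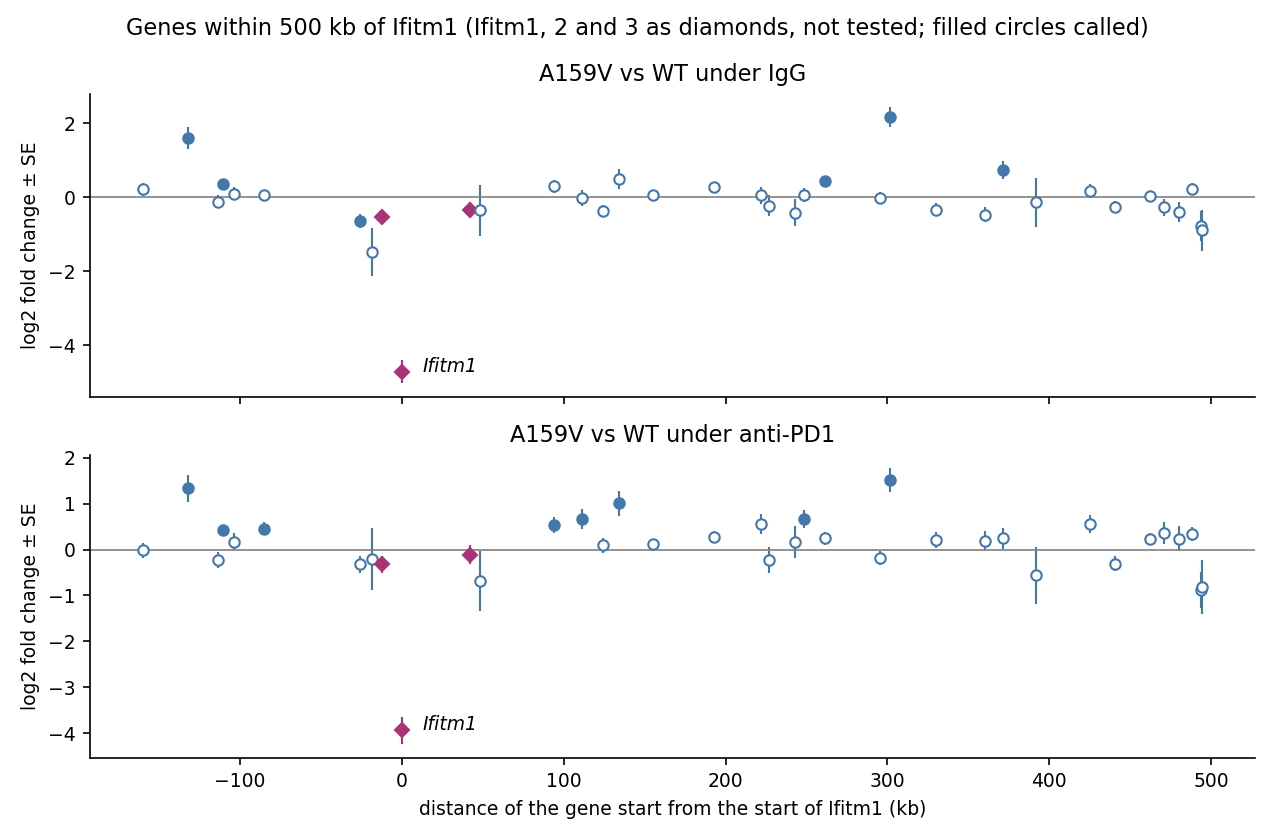
Log2 fold change ± SE (y axes) in A159V against WT under IgG (top) and anti-PD1 (bottom) for the 37 tested genes within 500 kb of Ifitm1, by the distance in kb of their lower coordinates from that of Ifitm1 (x axis); diamonds are Ifitm1, Ifitm2 and Ifitm3, and filled circles are other genes that passed the test. Ifitm1 lay at −4.71 and −3.94, and the 34 other genes lay between −1.48 and 2.17 under IgG and between −0.88 and 1.51 under anti-PD1.

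Interferon-stimulated genes give the setting in which Ifitm genes are usually read. A list of 42 such genes outside the family was tested in full. In A159V against WT under IgG, 10 fell, 1 rose and 31 did not pass, or 26.2% called, where 28% of all genes tested were called, 12.4% as lower and 15.6% as higher. Mx1 and Mx2, antiviral GTPases, fell by 1.52 and 1.25 on the log2 scale (SE 0.17 and 0.18). Xaf1, a pro-apoptotic gene, fell by 0.61 (SE 0.15), and Stat2, which encodes a part of the type I interferon transcription complex, fell by 0.61 (SE 0.16). Rsad2, which encodes the antiviral enzyme viperin, rose by 0.47 (SE 0.15).

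Under IgG the median over the 42 genes was −0.15 on the log2 scale, where that over all genes was 0.02. The log2 fold change of Ifitm1 was below those of all 42 genes, that of Ifitm2 was above those of 9 of them and that of Ifitm3 above those of 15. Without replicate 2 of A159V IgG the number called was 3, and without replicate 1 of WT anti-PD1 or replicate 3 of A159V anti-PD1 it was 7. Under anti-PD1, 4 of the 42 fell in A159V and none rose, or 9.52%, where 10.2% of all genes tested were called as lower. They were Mx1 (−0.93, SE 0.17), Mx2 (−0.71, SE 0.18), Dhx58 (−0.47, SE 0.13) and Lgals3bp (−0.40, SE 0.12). This number ranged from 1 without replicate 3 of either anti-PD1 group to 9 without replicate 1 of WT IgG. It was 2 without replicate 2 of WT anti-PD1 or replicate 1 of A159V anti-PD1, and 8 without replicate 5 of A159V IgG.

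In the comparisons of anti-PD1 with IgG, no gene of the list passed edgeR's test in WT or in A159V tumors, with 12 and 0 of the 42 at an unadjusted p under 0.05, where 3937 and 521 of the 14340 genes tested were. The median log2 fold change was 0.04 in WT and 0.13 in A159V. DESeq2 called 3 genes of the list in WT and none in A159V, and limma voom none in either.

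**Figure D5:**
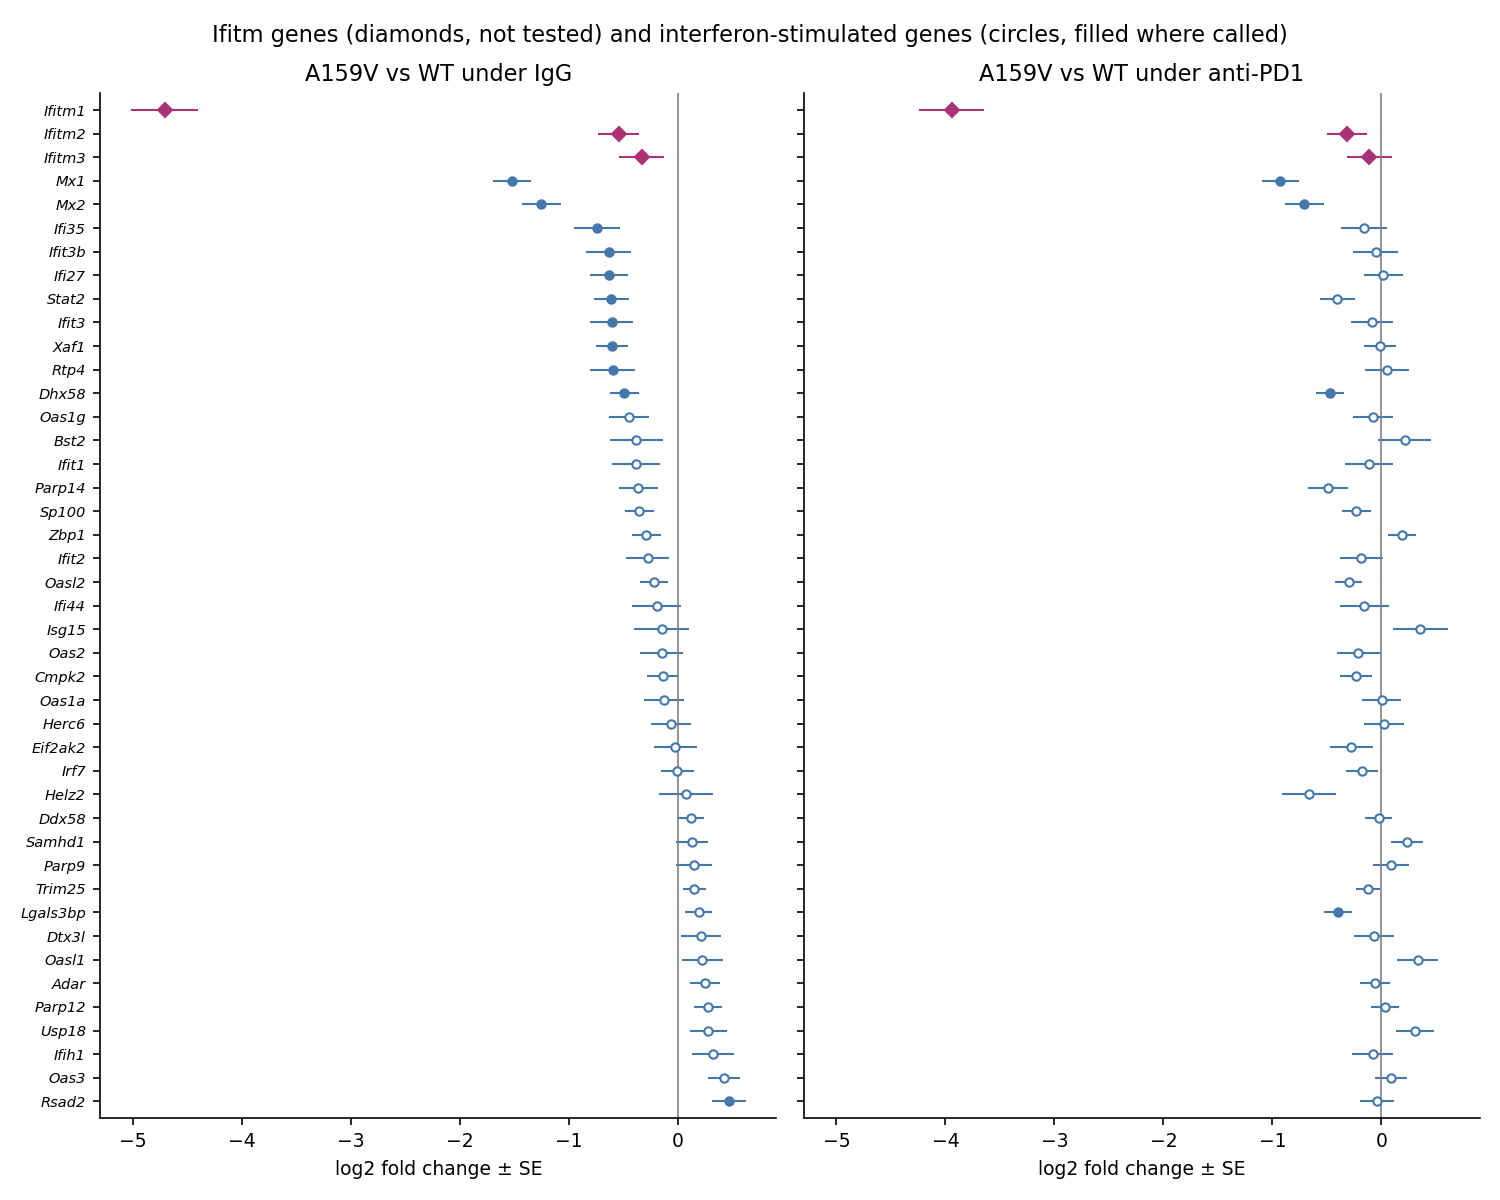
Log2 fold change ± SE (x axes, shared) in A159V against WT under IgG (left) and anti-PD1 (right) for Ifitm1, Ifitm2 and Ifitm3 (diamonds, not tested) and for 40 of the 42 interferon-stimulated genes (circles, filled where they passed the test), listed on the y axis by their value under IgG. Ifitm1 lay at −4.71 and −3.94, below Mx1, the lowest of the other genes, at −1.52 and −0.93.

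Promoters with ISRE letters were followed in the same way. Of 410 tested genes with such a promoter, 16.3% fell and 12.9% rose in A159V under IgG, where 12.4% and 15.6% of all genes tested did. Under anti-PD1, 12.2% fell and 8.78% rose, where 10.2% and 11.2% of all genes did. The 410 genes come from the 10604 tested genes with a promoter window, whereas the shares of all genes are over 14340.

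Genes of interferon signaling were listed apart. Of 15 tested, 4 fell and 2 rose in A159V under IgG, where 12.4% of all genes tested fell and 15.6% rose. Those that fell were Irf1, a transcription factor induced by interferon-gamma (−0.78, SE 0.16), Ifngr1, its ligand-binding receptor chain (−0.49, SE 0.12), Stat2 (−0.61, SE 0.16) and Socs1, a feedback inhibitor of JAK kinases (−0.86, SE 0.22). The kinase gene Jak1 (0.67, SE 0.18) and the phosphatase gene Ptpn6 (0.68, SE 0.22) rose. Under anti-PD1, Ifngr1 (−0.79, SE 0.12), Socs1 (−0.87, SE 0.23) and Socs3 (−0.82, SE 0.21) fell and none rose, where 10.2% of all genes tested fell and 11.2% rose.

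Partners of IFITM proteins were listed too. Of 7 tested, 1 fell and 1 rose in A159V under IgG, where 28% of all genes tested were called. Cd81, a tetraspanin that binds IFITM1, was at 232 ± 11.5 CPM in WT and at 147 ± 14.1 CPM in A159V under IgG (log2 fold change −0.65, SE 0.14, adjusted p = 0.00491), and under anti-PD1 its log2 fold change was −1.24 (SE 0.14). Zmpste24, a protease that acts with IFITM proteins against viruses, rose by 0.72 under IgG (SE 0.20, adjusted p = 0.0203), and its value under anti-PD1 was 0.11 (SE 0.20, adjusted p = 0.725). The ubiquitin ligase gene Nedd4 (0.21, SE 0.23) and the palmitoyltransferase gene Zdhhc20 (−0.10, SE 0.26) did not pass. Ifitm1 is also known as a target of Wnt signaling, and of 9 tested genes of a Wnt target list, Tcf7 (1.33, SE 0.15) and Rnf43 (2.16, SE 0.32) rose under IgG and Notum (−2.64, SE 0.64) fell, where 28% of all genes tested were called. Under anti-PD1, Tcf7 (0.79, SE 0.14) and Lef1 (0.87, SE 0.21) rose and none fell, where 21.4% of all genes were called, and Rnf43 (0.92, SE 0.31, adjusted p = 0.0535) and Notum (−2.15, SE 0.78, adjusted p = 0.0673) did not pass.

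Genes whose level followed that of a member most closely were named by Pearson's r of log2 CPM over the 12 mice, given as a description. The mice fall into WT and A159V clusters for Ifitm1, so r within the 6 mice of each genotype is given beside it. Of the 5 genes most like Ifitm1, 4 were Tsc22d1 (r = 0.989), Rab29 (0.983), Pid1 (0.981) and Pla2g7 (0.980), none of them on chromosome 7. Within WT their r with Ifitm1 ranged from 0.25 for Pid1 to 0.97 for Rab29, and within A159V from −0.23 for Pid1 to 0.71 for Tsc22d1. The r values within WT include replicate 1 of WT IgG, the highest mouse for Ifitm1, and were not computed without it.

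Levels of these genes were also lower in A159V, by other amounts. Tsc22d1, a leucine zipper gene of the TGF-beta response, was at 319 ± 61.5 CPM in WT and 79.9 ± 9.86 CPM in A159V under IgG (log2 fold change −1.999, SE 0.18). Pla2g7, which encodes a secreted phospholipase that inactivates platelet-activating factor, was at 29.0 ± 2.56 and 4.10 ± 0.96 CPM (−2.82, SE 0.19). Pid1 was at 0.86 ± 0.25 CPM in WT IgG and had no count in A159V IgG, where 3 counts would have been 0.137 to 0.162 CPM. Ifitm2 ranked 1271st in likeness to Ifitm1 among the genes tested (r = 0.752) and Ifitm3 ranked 3637th (r = 0.441). These ranks include the genotype difference on which the family was chosen. Within WT, replicate 1 of WT IgG included, r with Ifitm1 was 0.98 for Ifitm2 and 0.90 for Ifitm3. Within A159V it was 0.40 and −0.31. With the mean of each group subtracted, Ifitm2 ranked 58th (r = 0.759) and Ifitm3 835th (r = 0.525).

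The 5 genes most like Ifitm3 were Rps27rt (r = 0.951), Ppp1r11 (0.950), Rps27 (0.948), Uqcrh (0.946) and Tmed3 (0.942). Their exon lengths were from 374 to 2847 bp, where the median of the genes tested was 4128 bp. Within WT their r with Ifitm3 ranged from 0.94 for Rps27 to 0.98 for Ppp1r11. Within A159V it ranged from 0.34 for Tmed3 to 0.88 for Rps27. Once the mean of each group was taken away, those most like Ifitm3 were S100a11, Dbi and Arf5 (r = 0.985, 0.984 and 0.982), with exon lengths of 511, 1422 and 1907 bp. Of the 3 most like Ifitm1 by this measure, 2 were Kctd1 and Rgcc (r = 0.974 and 0.915). Kctd1 has an exon length of 7917 bp and Rgcc of 918 bp. The part of exon length in these r values was not tested. Except for those within A159V, they include replicate 1 of WT IgG, the highest mouse for Ifitm3, and were not computed without it.

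Markers of other cells were read in the same libraries, since fewer cells of a type and less RNA per cell cannot be told apart in bulk samples. The summed level of 13 leukocyte markers under IgG was 7.22 to 10.7 CPM in WT and 7.28 to 7.93 CPM in A159V, and under anti-PD1 it was 23.2 to 34.1 CPM in WT and 7.03 to 8.62 CPM in A159V. Cd79a was the highest of the 13 in WT IgG and in both A159V groups. Unlike the markers that fell, it averaged 4.64 CPM in WT and 6.15 CPM in A159V under IgG. Under anti-PD1 Cd79a averaged 4.63 and 6.01 CPM. Ptprc, the pan-leukocyte CD45 gene, averaged 1.31 and 0.103 CPM under IgG and 10.2 and 0.129 CPM under anti-PD1. Of 8 tested markers of this list, 4 fell in A159V under IgG and 7 under anti-PD1, where 12.4% and 10.2% of all genes tested fell. Cd3e was at 0 in 1 group. Within WT tumors the markers were higher under anti-PD1, where the mean of Ifitm1 was 38.9 CPM against 52.5 CPM under IgG. With the leukocyte score as a covariate, the log2 fold change of Ifitm1 in A159V against WT was −4.02 under IgG and −2.18 under anti-PD1, and under anti-PD1 those of Ifitm2 and Ifitm3 were 0.37 and 0.32, of the opposite sign. Centered on its mean, the score lay from −1.33 to −0.80 in A159V mice. In WT it lay from −0.46 to 0.40 under IgG and from 1.71 to 2.10 under anti-PD1. The genotypes did not overlap in it, so this fit cannot separate the score from the genotype.

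The summed level of 6 fibroblast and mural markers, led by Dcn, under IgG was 236 to 458 CPM in WT and 161 to 228 CPM in A159V, and under anti-PD1 it was 352 to 599 and 133 to 186 CPM, lower in A159V, with Dcn giving most of the sum. Of these 6 genes, Lum, Rgs5 and Dcn fell in A159V under IgG and none rose, where 12.4% of all genes tested fell, and Pdgfra averaged 45.9 CPM in WT and 70.5 CPM in A159V (log2 fold change 0.62, SE 0.28, adjusted p = 0.113). Under anti-PD1, 4 of the 6 fell, those 3 and Pdgfrb, where 10.2% of all genes did, and Acta2 rose (2.20, SE 0.56, adjusted p = 0.0145). None of the 6 was at 0 in any group. The 6 neutrophil markers summed to 22.4 to 83.6 CPM in WT and 7.12 to 10.9 CPM in A159V under IgG and to 32.2 to 97.0 and 5.39 to 8.24 CPM under anti-PD1, nearly all of it from Mmp9, while the group means of S100a8 stayed under 1 CPM and Retnlg was at 0 in 3 of the 4 groups. The 7 endothelial markers summed to 6.45 to 10.1 CPM in WT and 5.15 to 8.83 CPM in A159V under IgG, and to 13.5 to 15.1 and 7.18 to 8.84 CPM under anti-PD1, with Cldn5 at 0 in 3 groups. Of the 2 tested, neither passed under IgG, where 28% of all genes tested did. Both fell in A159V under anti-PD1, where 10.2% of all genes did, Pecam1 by 1.08 (SE 0.34) and Cdh5 by 0.74 (SE 0.23). The part of these cells in the Ifitm1 difference was not tested.

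Of 7 epithelial markers, which summed to 1.91 to 8.13 CPM, Epcam averaged 0.036 CPM in WT and 0 in A159V under IgG and 0.022 and 0.018 CPM under anti-PD1, and the group means of Krt8 stayed under 1 CPM. Other markers of the list were read at low levels. Cldn4, a tight junction gene, averaged 0.42 CPM in WT and 3.51 CPM in A159V under IgG and rose in A159V under IgG (3.03, SE 0.59) and anti-PD1 (1.94, SE 0.56). Vil1, a brush border gene, averaged 0.97 to 1.55 CPM over the groups and did not pass under either treatment, and Cdh1 fell under anti-PD1 (−1.61, SE 0.44). Epcam, the defining epithelial marker, was thus at or near 0 in both genotypes, whereas Cldn4 and Vil1 were detected.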

How the data were processed

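RNA of tumor cells purified from 12 tumors was measured by bulk RNA-seq. The authors aligned paired reads of 100 bp to mm10 with STAR, converted the files with Samtools, counted reads per gene with summarizeOverlaps and deposited the raw counts, without normalization, as 1 table; versions, annotation, counting mode and strand setting are not given in the sources used here. Groups came from the sample labels, each of which matched 1 column. Of 33219 features, 31980 had a symbol in GENCODE M21, the source of mm10 positions and exon lengths; 2 rows are reporters with 0 counts. No pair of columns was identical.

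The test was that of edgeR 4.0.16 under R 4.3.3 (filterByExpr, TMM scaling, quasi-likelihood test, 1 fit of all 12 samples, 8 residual degrees of freedom), with Benjamini-Hochberg adjustment over 14340 genes. Called genes had a log2 fold change beyond 0.3 in either direction and an adjusted p below 0.05. CPM values are TMM-scaled. Correlations used log2 CPM with a prior count of 2. Nothing in the labels says how mice were housed or processed together, so p-values measure the spread between these mice.

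The members and all lists (other CD225 genes, interferon-stimulated and interferon signaling genes, IFITM partners, Wnt targets, markers of leukocytes, neutrophils, endothelium, fibroblasts and mural cells, and epithelium) were chosen with earlier results of these data known, and support nothing by themselves. Named were the members, other CD225 genes above 1 CPM in a group and the nearest tested gene on each side, up to 4 called genes per list and direction with the smallest p under IgG, called genes within 500 kb of Ifitm1 and the genes of highest r (5 over all mice, 3 after subtraction of group means). Ifitm6, Tmem91, Irf7, Nedd4, Zdhhc20, the genes called under anti-PD1 alone and the marker genes were named after their values were seen. Some genes that the rule names are not reported here.

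Alternatives were RLE or upper-quartile scaling, no filter or at least 10 counts in every sample, DESeq2 1.42.0, voom in limma 3.58.1, a fit of only the groups compared, the replicate number as a block, the leukocyte marker score (mean log2 CPM of the list) as a covariate, a prior count of 0.5 and each mouse left out in turn. A further alternative, chosen after seeing the data, took away the smooth exon-length trend of each sample. The script was tested on simulated counts with known changes. Promoter windows came from RefSeq (GRCm38.p6), which held 4 of the 4 members, and were searched with Python 3.11.15 and Biopython 1.88.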

Additional observations from a re-analysis of the deposited data

Results flagged for a closer look

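Among all genes tested, 1 gene outside the family, Errfi1, a feedback inhibitor of the EGF receptor, passed the interaction test, in which the genotypes differed in how a gene responded to anti-PD1, and it is named after its values were seen. Its log2 fold change under anti-PD1 was 1.19 (SE 0.12) in WT and −0.19 (SE 0.12) in A159V, a difference of −1.38 (SE 0.17, edgeR adjusted p = 0.0267). No Ifitm member passed this test.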

How the results depend on the processing

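With 12 mice, 3 to a group, all values below rest on few samples, and Ifitm1 in A159V on 25 to 58 counts a mouse. Ifitm1 was lower in A159V under all alternatives tried, and its log2 fold change moved by more than the replicate SD only with the leukocyte score as a covariate, to −4.02 under IgG and −2.18 under anti-PD1. That score did not overlap between the genotypes, so a fit with it cannot separate the score from the genotype. Under the other alternatives the value of Ifitm1 moved by less than that SD, and with 1 mouse left out it ranged from −5.03 to −4.48 and from −4.13 to −3.76. With the exon-length trend removed, Ifitm2 and Ifitm3 changed sign in the response to anti-PD1 in WT (0.14 for both) and in the difference between genotypes (−0.32 and −0.34). With 1 mouse left out, the response in WT ranged from −0.53 to 0.0012 for Ifitm3, that in A159V from −0.14 to 0.022 for Ifitm2, and the difference between genotypes from −0.049 to 0.37 for Ifitm2 and from −0.12 to 0.43 for Ifitm3.

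The replicate numbers only name mice: the deviations of same-numbered mice from their group means had r from −0.18 to 0.20. Number 4 occurs in 1 mouse only, of WT IgG, and number 5 in 1 mouse only, of A159V IgG. A block on the number therefore leaves these mice without weight in the comparisons. With the replicate number as a block, 2 of the 3 members were called for anti-PD1 in WT, Ifitm2 (−0.53, edgeR adjusted p = 0.0486) and Ifitm3 (−0.55, adjusted p = 0.0274), the genes called were 5018 for A159V against WT under anti-PD1, 4650 for anti-PD1 in WT and 2760 for the interaction, and the interferon-stimulated genes called were 19 and 8 for A159V against WT under IgG and anti-PD1, 13 for anti-PD1 in WT and 10 for the interaction. With 1 mouse left out, 0 to 1 of the members were called for anti-PD1 in WT, and none in A159V or for the interaction.

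Counts over all genes moved more. For A159V against WT under IgG (4010 called) they were 1399 with only the groups compared, 46 with the leukocyte score and 2578 to 4717 with 1 mouse left out. Under anti-PD1 (3075) they were 2014 with at least 10 counts in every sample, 5320 with only the groups compared, 2 with the leukocyte score and 1519 to 4134 with 1 mouse left out. For anti-PD1 in WT (90) they were 771 with no filter, 25 with at least 10 counts, 1478 with DESeq2, 188 with voom, 0 with only the groups compared or the leukocyte score, 181 with the length trend removed and 1 to 3458 with 1 mouse left out, lowest without replicate 1 of WT IgG and highest without its replicate 4. For anti-PD1 in A159V, 0 were called by edgeR and voom (521 at an unadjusted p under 0.05 by edgeR) and 2 by DESeq2. For the interaction (1) they were 0 with upper-quartile scaling or the leukocyte score, 37 with no filter, 295 with DESeq2 and 0 to 1182 with 1 mouse left out. Interferon-stimulated genes called under IgG (11) were 2 with only the groups compared, 0 with the leukocyte score and 3 to 14 with 1 mouse left out. Under anti-PD1 (4) they were 8 with DESeq2, 12 with only the groups compared, 0 with the leukocyte score and 1 to 9 with 1 mouse left out. For anti-PD1 in WT (0) they were 1 with no filter, 3 with DESeq2, 1 with the length trend removed and 0 to 8 with 1 mouse left out, and for the interaction (0) they were 1 with DESeq2 and 0 to 4. The log2 ratio of Ifitm1 to Ifitm3 under anti-PD1 against IgG ranged from −0.21 to −0.02 in WT and from 0.18 to 0.77 in A159V with 1 mouse left out. With a prior count of 0.5, 4 of the 5 genes most like Ifitm1 and all 5 for Ifitm3 were the same genes. The causes were not tested.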
